A study of Homo sapiens with 15 samples.

Results

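HepG2 cells given palmitate and the highest dose of sodium butyrate were set against untreated HepG2 cells, gene by gene. The members are the 3 libraries of palmitate with 1.5 mM butyrate, called high butyrate here, and the 3 control libraries, chosen by their labels: 6 of the 15 RNA-seq libraries of the series. HepG2 is a human hepatocellular carcinoma line, labelled wild type, and all 15 libraries carry the same batch label. Palmitate, a saturated fatty acid, served in the series to make cells insulin resistant, and the labels give its dose as 200 mM, a unit that could not be checked. By the library names the high butyrate cells had 24 h of palmitate and 24 h of butyrate, the control cells were taken at 48 h, and harvest was at 48 h for all, while the series text also speaks of collection at 24 h. Whether palmitate stayed on the cells beside butyrate is not stated. The other groups are palmitate with 1 mM (medium) or 0.5 mM (low) butyrate and palmitate alone, and no group had butyrate without palmitate. The comparison therefore shows what palmitate and butyrate did together, and their shares in it cannot be told apart within these 6 libraries. The series text calls the 3 libraries of a group biological replicates, but does not say whether they came from separate cultures. The p-values measure the spread between libraries within groups, taken over all 15 libraries, and this spread may be technical.

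Butyrate is a short-chain fatty acid made by gut bacteria. It enters cells through monocarboxylate carriers, is burned as fuel after coupling to coenzyme A, and inhibits class I histone deacetylases, the enzymes that take acetyl groups off histone tails. In many cell lines such inhibition raises CDKN1A, which encodes the cyclin-dependent kinase inhibitor p21, slows division and opens genes that the tissue of origin keeps silent. The liver meets butyrate through the portal vein, and it is also the organ that makes glucose, fat, cholesterol and most plasma proteins.

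The 3 high butyrate libraries held 43917285 to 47320903 counts and the 3 control libraries 46457472 to 51080106. Levels are given as CPM, counts scaled to the size of the library, with TMM factors, and the deposited FPKM values are used where genes are compared with each other. The first principal component held 67.1% of the variance, and on it the high butyrate libraries lay at 128 to 129 and the control libraries all near -88. High butyrate library 1 differed more from libraries 2 and 3 (chi-square per gene 15.6 and 21.2) than these did from each other (8.03), and control libraries differed by 5.58 to 8.22. Without it 7054 genes were called higher and 6563 lower than control, against 7502 and 6715 with it. The 13 mRNAs of the mitochondrial genome took 7.45% to 9.53% of counts in the high butyrate libraries and 5.82% to 6.12% in control. Hepatocyte markers were abundant in both groups: ALB, AFP, APOA1, APOB and SERPINA1 ranged from 629 to 1612 FPKM with high butyrate and from 390.5 to 1624 FPKM in control. TTR was low for a hepatocyte marker, at 8.46 ± 0.761 FPKM with high butyrate and 6.53 ± 0.489 FPKM in control. Of the markers of other cells, PTPRC and CD3E of leukocytes, COL3A1, DCN and LUM of stroma and KDR of endothelium were under 0.02 FPKM in both groups. Others were measurable. PDGFRB and COL1A1 of stroma and PECAM1 of endothelium averaged 0.907, 1.96 and 1.51 FPKM with high butyrate and 0.296, 0.0222 and 0.572 FPKM in control. VWF of endothelium averaged 0.0859 FPKM with high butyrate and 0.0132 FPKM in control. CDH5 of endothelium went the other way, at 0.0702 FPKM with high butyrate and 0.283 FPKM in control. LYZ, which encodes lysozyme, stood at 599.6 ± 36.2 FPKM with high butyrate and 1342 ± 27.7 FPKM in control.

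A set of 56 genes, picked after the data were seen, separates the libraries in a way the treatments do not. Each had at least 0.5 CPM in palmitate library 1 and there at least 8 times its level in palmitate libraries 2 and 3. Their summed level was 82.5, 109 and 81.7 CPM in control, 104, 1.86 and 2.01 CPM in palmitate libraries 1, 2 and 3, 119.6 to 149 CPM with low and 121 to 147 CPM with medium butyrate, and 23.4, 23.1 and 25.1 CPM with high butyrate. Of the 56 genes, 38 were called lower with high butyrate than in control, 4 were called higher and 14 were not called. The test takes the spread of a gene from all 15 libraries, so for these genes it includes the split of the palmitate libraries. Some genes not called, such as PLAU, SRGN and LAMB3, had no overlap between the high butyrate and control libraries. VIM, MSN, EMP1, CD44 and KRT7 belong to this set, and each is given below with its level in palmitate libraries 2 and 3. Low levels in those libraries are how the set was picked, so they are no separate result. The set also includes 2 members each of the droplet and lipoprotein, the junction and keratin and the stromal and endothelial lists, 3 of the cytoskeleton list and 1 of the drug metabolism list. Why these libraries differ was not tested.

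**Figure D1:**
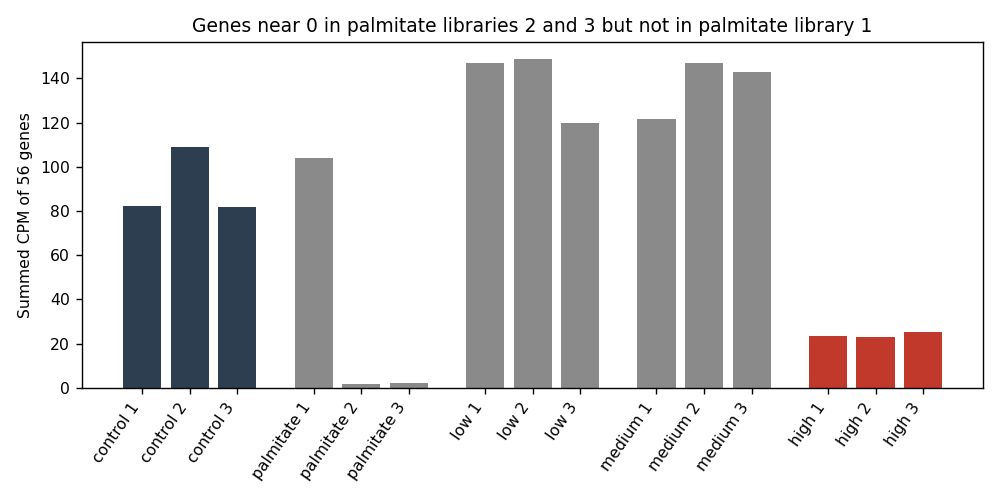
Summed level of the 56 genes in each of the 15 libraries, in CPM, with control in dark blue, high butyrate in red and the other groups in grey. Palmitate libraries 2 and 3 stand at 1.86 and 2.01 CPM and the 3 high butyrate libraries at 23.1 to 25.1 CPM, below the control libraries at 81.7 to 109 CPM.

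Most measured genes differed. The quasi-likelihood test of edgeR, with adjustment over all 20309 genes tested, called 14217 genes at an adjusted p under 0.05, which is 70.0% of those tested. Of these, 7502 were higher with high butyrate (36.9%) and 6715 were lower (33.1%). At 2-fold or more, 4618 genes were called higher (22.7%) and 2610 lower (12.9%). At 15282 genes (75.2%) the 3 high butyrate values and the 3 control values did not overlap. The median log2 change over all genes tested was 0.06. These shares are the background for every gene list below, and a list whose shares are near them says nothing of its own. The background also shifts with level. At an average log2 CPM of 4 to 6, 29.3% of 4842 genes were called higher and 50.6% lower, and at 6 to 8, 27.5% and 54.6% of 2499. Lists were not matched for level, so a list of well-expressed genes with shares near these says nothing of its own either. Lists were counted and not tested as sets.

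Direction went with expression level and with the kind of gene. Among the 6187 genes with an average log2 CPM under 0, 43.2% were called higher and 9.99% lower. Scarce genes could pass the filter through the butyrate groups alone, which favours rises there. Among the 587 genes over 8, 24.9% were called higher and 51.4% lower. Genes annotated as lincRNA were called higher in 45.4% and lower in 18.1% of 1325, and antisense RNA genes in 37.0% and 16.1% of 1533, whereas the 14487 protein-coding genes divided evenly, 38.5% higher and 38.8% lower. These shares by kind were not compared at matched expression level, and the limit of the filter holds for scarce genes of any kind. Of the 20309 genes tested, 340, of which 270 are protein-coding, averaged under 0.1 CPM in control and had at least 1 CPM in every high butyrate library. The reverse held for 9 genes, 6 of which belong to the 56 genes described above. Because counts are scaled to the library, a change in total RNA per cell would not be seen, and in bulk RNA a lower level in each cell cannot be told apart from fewer cells with the transcript.

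**Figure D2:**
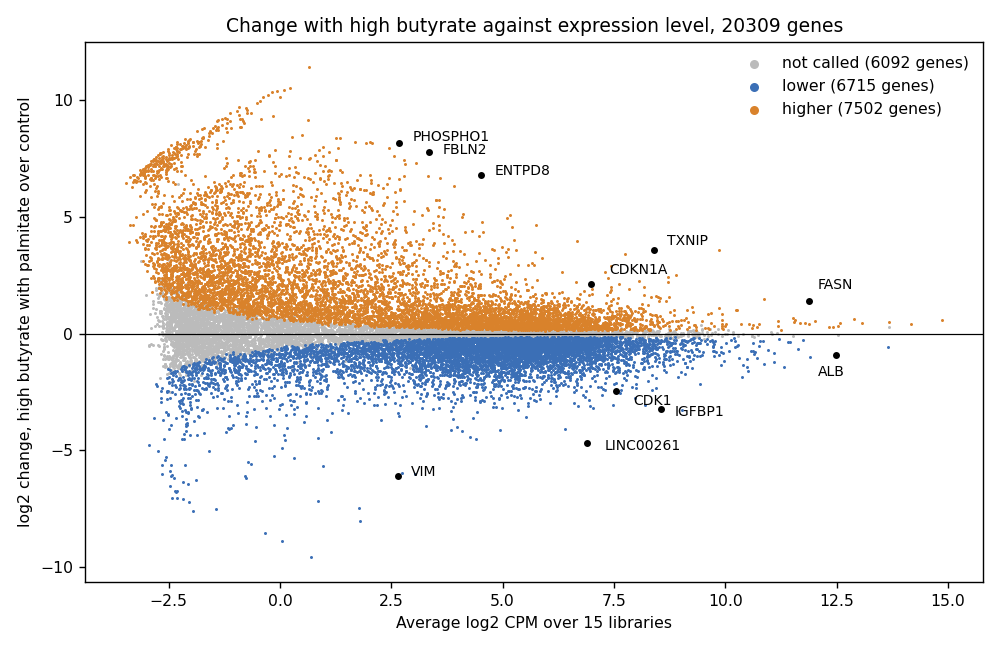
The log2 change of high butyrate over control (y axis) against average log2 CPM over all 15 libraries (x axis) for the 20309 genes tested, with 7502 called higher in orange, 6715 called lower in blue and 6092 not called in grey. The orange points reach farthest up at low levels, where 2671 genes under 0 were higher and 618 lower.

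Among genes with an average log2 CPM of 2 or more, the steepest rises were in genes that control cells hardly transcribed. Some scarcer genes had larger fitted changes, for instance 11.4 on the log2 scale where control stood at 0 CPM. PHOSPHO1, which encodes a phosphatase of phosphocholine and phosphoethanolamine (ENSG00000173868, chromosome 17, 49223362 to 49230766), had 26.5, 25.9 and 25.7 CPM in the high butyrate libraries, against 0.153, 0.0853 and 0.0390 CPM in control (log2 change 8.13, SE 0.248, adjusted p = 5.44e-17). FBLN2, which encodes the extracellular matrix protein fibulin-2 (ENSG00000163520, chromosome 3, 13549131 to 13638422), had 42.1, 38.0 and 39.4 CPM in the high butyrate libraries, against 0.131, 0.171 and 0.234 CPM in control (log2 change 7.77, SE 0.209, adjusted p = 1.12e-17). In both genes the lowest high butyrate library lay far above the highest control library. ENTPD8, which encodes a nucleotide-hydrolysing enzyme of the hepatocyte canalicular membrane (ENSG00000188833, chromosome 9, 137434364 to 137441816), had 83.2, 94.1 and 90.8 CPM in the high butyrate libraries, against 0.872, 0.832 and 0.740 CPM in control (log2 change 6.78, SE 0.143, adjusted p = 4.81e-19). Its groups were as far from overlap as those of the genes above. SEZ6L2, which encodes a neuronal membrane protein (ENSG00000174938, chromosome 16, 29871159 to 29899547), had 49.0, 46.8 and 41.7 CPM in the high butyrate libraries, against 0.545, 0.555 and 0.292 CPM in control.

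The other large rises were in genes of several kinds. SLC17A8, which encodes a vesicular glutamate transporter, averaged 16.5 ± 1.81 CPM with high butyrate and 0.0835 ± 0.00491 CPM in control (SD, n = 3 each), a rise of 7.58 on the log2 scale. CACNA1G, a T-type calcium channel gene, averaged 21.3 ± 0.948 CPM with high butyrate and 0.211 ± 0.0911 CPM in control, and HAP1, whose product binds huntingtin, averaged 25.6 ± 1.74 CPM with high butyrate and 0.236 ± 0.0622 CPM in control. ATP1B2, which encodes a beta subunit of the sodium pump, averaged 27.9 ± 4.36 CPM with high butyrate and 0.181 ± 0.0890 CPM in control. SCUBE1 and CRISPLD2, both encoding secreted proteins, rose by 7.42 and 6.76. The rule also named the long non-coding RNAs LINC02757 (14.6 CPM with high butyrate against 0.0490 CPM in control) and LINC02204 (23.0 CPM with high butyrate against 0.0887 CPM in control). In all 12 genes named so far the groups did not overlap, which the rule required. Without control library 3 the log2 change of CRISPLD2 was 7.46. Counts behind the control values are few, so the size of these ratios is less certain than their direction.

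Falls were shallower, apart from the set of 56 genes. By fitted change the rule, with the same limit on average level, named VIM, EMP1 and MSN first. VIM, the gene of the intermediate filament vimentin, had 0.111, 0.120 and 0.0806 CPM in the high butyrate libraries, against 6.91, 8.83 and 6.37 CPM in control (log2 change -6.11, SE 1.08, adjusted p = 3.35e-05). It stood at 7.71, 0.133 and 0.0857 CPM in palmitate libraries 1, 2 and 3. EMP1, an epithelial membrane protein gene, had 0, 0.179 and 0.242 CPM in the high butyrate libraries, against 9.02, 11.4 and 8.30 CPM in control, with 0.133 and 0.137 CPM in palmitate libraries 2 and 3. MSN, which encodes the actin linker moesin, had 0.0668, 0.199 and 0.0806 CPM in the high butyrate libraries, against 5.93, 10.1 and 6.72 CPM in control, with 0.0666 and 0.0343 CPM in palmitate libraries 2 and 3. The log2 change of EMP1 was -6.02, or -6.63 without high butyrate library 3, and that of MSN -5.98, or -6.65 without high butyrate library 2. The part of the library split in these falls was not tested.

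LINC00261 led the remaining falls named by the rule. This long non-coding RNA of endoderm and liver (ENSG00000259974, chromosome 20, 22547671 to 22578642) had 8.19, 7.52 and 7.72 CPM in the high butyrate libraries, against 207, 199 and 196 CPM in control (log2 change -4.68, SE 0.0830, adjusted p = 3.87e-20). Its neighbour FOXA2, a pioneer transcription factor of endoderm, had 16.7, 14.8 and 15.4 CPM in the high butyrate libraries, against 39.6, 41.7 and 38.3 CPM in control (log2 change -1.35, SE 0.0659, adjusted p = 8.76e-14). The strand setting of the counting is not given in the sources used here, so reads of overlapping genes may have been shared. SLC26A9, which encodes an anion transporter (ENSG00000174502, chromosome 1, 205913048 to 205943460), had 1.60, 1.46 and 1.57 CPM in the high butyrate libraries, against 33.7, 38.0 and 33.6 CPM in control. LGI1, which encodes a secreted protein best known from brain (ENSG00000108231, chromosome 10, 93757809 to 93806272), had 7.66, 6.90 and 7.28 CPM in the high butyrate libraries, against 129, 120.3 and 121 CPM in control. AP1M2, the epithelial clathrin adaptor gene, averaged 3.10 ± 0.191 CPM with high butyrate and 54.6 ± 4.12 CPM in control. EDN1, which encodes the vasoconstrictor endothelin 1, averaged 1.96 ± 0.135 CPM with high butyrate and 31.4 ± 0.855 CPM in control, and APOF, an apolipoprotein gene, averaged 1.00 ± 0.235 CPM with high butyrate and 15.6 ± 1.90 CPM in control. LINC00513 and LINC01146 fell by 4.42 and 4.17 on the log2 scale.

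**Figure D3:**
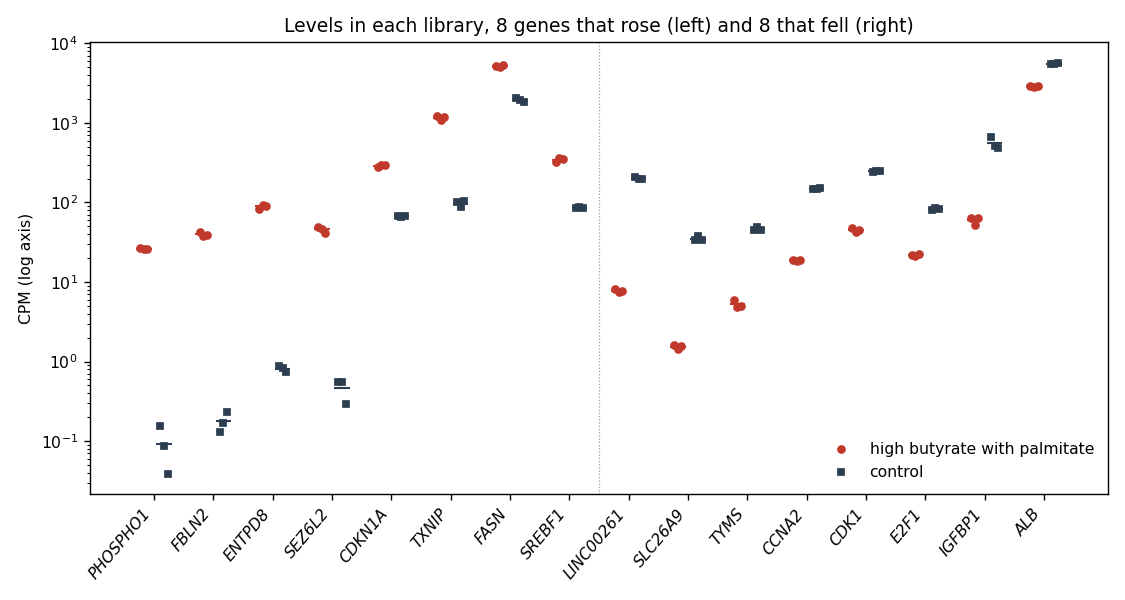
Levels of 16 genes in the 3 high butyrate libraries (red circles) and the 3 control libraries (dark squares), in CPM on a log axis, with a line at each group's mean. In each of the 16 genes the groups do not overlap, and the control values of PHOSPHO1 and FBLN2 are under 1 CPM.

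Cell division genes fell nearly throughout, while CDKN1A rose. CDKN1A, which encodes p21, had 282, 298 and 296 CPM in the high butyrate libraries, against 67.2, 66.6 and 66.7 CPM in control (log2 change 2.13, SE 0.0614, adjusted p = 2.62e-17), a 4.36-fold rise. It was the 1 gene called higher among 7 tested inhibitor genes. CDKN1B, encoding p27, fell to 27.5 ± 2.15 CPM with high butyrate, against 52.3 ± 2.35 CPM in control (log2 change -0.93, adjusted p = 2.11e-09), CDKN2C, encoding p18, fell to 10.5 ± 0.305 CPM with high butyrate, against 28.8 ± 1.14 CPM in control (log2 change -1.45, adjusted p = 8.61e-12), and the remaining 4 were not called. With DESeq2 3 of the 7 were higher, and with library totals alone 4. The promoter of CDKN1A is printed because GC boxes bound by Sp1-type factors have been tied to its response to deacetylase inhibitors. Promoters of CDK1, PLK1 and CCNB1 are printed beside it because these mitotic genes fell together and their promoters hold the CCAAT box or the cell cycle genes homology region (CHR). All are from RefSeq (GRCh38.p14), 250 bases before to 50 after the annotated start, read 5′ to 3′ on the gene's strand. Capitals mark GGGCGG or its reverse complement in CDKN1A, and in the other promoters CCAAT and the CHR forms TTTGAA or TTCGAA, or their reverse complements.
CDKN1A (chr6:36678464-36678763, plus strand): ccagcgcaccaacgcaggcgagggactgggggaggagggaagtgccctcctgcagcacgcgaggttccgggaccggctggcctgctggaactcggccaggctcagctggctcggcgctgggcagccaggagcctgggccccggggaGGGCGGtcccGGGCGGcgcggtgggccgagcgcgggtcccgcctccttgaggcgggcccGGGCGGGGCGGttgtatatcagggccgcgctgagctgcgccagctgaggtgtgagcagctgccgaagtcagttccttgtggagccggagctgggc
CDK1 (chr10:60778081-60778380, plus strand): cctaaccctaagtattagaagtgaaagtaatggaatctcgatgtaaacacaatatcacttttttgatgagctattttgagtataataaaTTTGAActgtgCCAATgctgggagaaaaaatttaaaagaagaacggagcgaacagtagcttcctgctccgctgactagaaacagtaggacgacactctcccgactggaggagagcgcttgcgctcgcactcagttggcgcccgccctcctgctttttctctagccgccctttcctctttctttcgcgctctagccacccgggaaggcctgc
PLK1 (chr16:23678639-23678938, plus strand): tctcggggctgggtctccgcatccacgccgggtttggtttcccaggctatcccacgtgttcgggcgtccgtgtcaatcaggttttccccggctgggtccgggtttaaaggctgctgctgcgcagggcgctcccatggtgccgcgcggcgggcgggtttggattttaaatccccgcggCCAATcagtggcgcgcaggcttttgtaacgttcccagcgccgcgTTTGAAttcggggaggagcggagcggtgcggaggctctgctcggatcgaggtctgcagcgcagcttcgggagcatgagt
CCNB1 (chr5:69166900-69167199, plus strand): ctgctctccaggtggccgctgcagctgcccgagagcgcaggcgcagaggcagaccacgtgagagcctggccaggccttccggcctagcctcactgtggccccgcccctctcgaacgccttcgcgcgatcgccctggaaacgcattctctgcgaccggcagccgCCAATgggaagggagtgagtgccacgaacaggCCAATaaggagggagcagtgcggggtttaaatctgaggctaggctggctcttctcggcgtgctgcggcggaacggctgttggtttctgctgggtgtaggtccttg

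The CDKN1A window holds 4 GC boxes, those of CDK1 and PLK1 each hold 1 CCAAT box and 1 CHR, and that of CCNB1 holds 2 CCAAT boxes and no exact CHR. GGGCGG on either strand occurs in 44.6% of the 27305 promoter windows of the RefSeq table, CCAAT in 35.7% and either CHR form in 16.6%. Of the 51 genes of the mitosis list that fell, 43 had a window in that table, and 69.8% of these held CCAAT and 67.4% a CHR. Of the 41 replication genes that fell, 35 had a window, of which 57.1% held CCAAT and 8.57% a CHR. Among tested genes with a window (12506 of 20309, or 61.6%), 66.7% held a GC box, 36.4% CCAAT and 11.4% a CHR, so a GC box is common among the genes measured here. A match describes the letters of the window and shows no binding.

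In the group of G1 cyclins, kinases and the E2F and RB switch, 17 of 23 tested genes fell and 4 rose (median log2 change -0.85). E2F1, which drives entry into S phase, had 21.6, 21.2 and 22.4 CPM in the high butyrate libraries, against 79.9, 84.9 and 81.9 CPM in control (log2 change -1.92, SE 0.0591, adjusted p = 6.26e-17). E2F7 and E2F8, repressors made late in S phase, fell by 2.99 and 2.80 on the log2 scale. CCND1, encoding cyclin D1, averaged 199 ± 1.30 CPM with high butyrate and 257 ± 2.05 CPM in control (log2 change -0.37, adjusted p = 3.93e-05). CCND2, encoding cyclin D2, went the other way, with 15.1, 18.2 and 16.1 CPM in the high butyrate libraries, against 1.46, 2.07 and 2.38 CPM in control (log2 change 3.06, adjusted p = 2.02e-13). CCNE1 and CCNE2, the cyclins of the G1 to S transition, fell by 0.46 and 1.46. MYC, a driver of growth, rose to 226 ± 9.87 CPM with high butyrate, against 145 ± 2.59 CPM in control (log2 change 0.64, adjusted p = 2.35e-07).

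DNA replication genes fell in 41 of 43 cases with a median log2 change of -1.45. TYMS, which makes thymidylate, had 6.01, 4.78 and 5.06 CPM in the high butyrate libraries, against 45.7, 48.9 and 44.6 CPM in control (log2 change -3.14, SE 0.0849, adjusted p = 1.12e-17). MCM2 and MCM5, parts of the replicative helicase, fell 3.55-fold and 4.37-fold, and CDC45, which completes that helicase, fell 4.99-fold. RRM2, a subunit of ribonucleotide reductase, averaged 130.0 ± 9.17 CPM with high butyrate and 371 ± 10.4 CPM in control. PCNA, the sliding clamp, fell less, to 355 ± 14.2 CPM with high butyrate, against 466 ± 11.5 CPM in control (log2 change -0.39, adjusted p = 3.63e-04). The single exception that rose was TK1, the thymidine salvage kinase gene, at 165 ± 14.96 CPM with high butyrate and 112 ± 2.37 CPM in control (log2 change 0.57, adjusted p = 2.28e-07), named after its value was seen.

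Mitosis and cytokinesis genes fell in 51 of 52 cases and none rose (median -1.62). CDK1, the kinase that starts mitosis, had 47.4, 43.0 and 45.6 CPM in the high butyrate libraries, against 242, 247 and 249 CPM in control (log2 change -2.44, SE 0.134, adjusted p = 5.84e-13). CCNA2, the cyclin of S phase and G2, had 19.0, 18.4 and 18.9 CPM in the high butyrate libraries, against 146, 148 and 151 CPM in control (log2 change -2.98, SE 0.0636, adjusted p = 4.98e-19), the deepest fall among those named. CCNB1, the partner cyclin of CDK1, averaged 68.8 ± 5.54 CPM with high butyrate and 215 ± 2.24 CPM in control, and the mitotic kinase genes PLK1 and AURKA averaged 54.0 ± 4.06 CPM with high butyrate against 204 ± 3.14 CPM in control and 53.2 ± 1.46 CPM with high butyrate against 281 ± 1.39 CPM in control. MAD2L1, of the spindle checkpoint, and SPC25, of the kinetochore, fell by 2.95 and 2.76 on the log2 scale. TOP2A, which untangles chromosomes, changed least among those named, at 558 ± 28.1 CPM with high butyrate and 968 ± 0.590 CPM in control (log2 change -0.79, adjusted p = 1.53e-09). NUSAP1, the 1 member not called, was counted at only 0.174 CPM with high butyrate against 0.283 CPM in control.

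Genes of growth arrest after DNA damage and of apoptosis moved in both directions, with falls in the majority. Of 28 DNA damage response genes, 6 rose and 18 fell (median -0.39). MDM2, a ubiquitin ligase gene of this response, fell to 73.0 ± 6.88 CPM with high butyrate, against 169 ± 4.21 CPM in control, and FAS, a death receptor gene, fell to 1.95 ± 0.0467 CPM with high butyrate, against 18.6 ± 0.693 CPM in control. SPATA18 and SESN1, both induced by DNA damage in many cells, fell by 2.31 and 0.75. CDKN1A, also in this list, is among the 6 that rose. Of 29 apoptosis genes, 7 rose and 15 fell (median -0.40). BIK, encoding a killer protein of the BH3-only class, had 23.2, 30.1 and 30.1 CPM in the high butyrate libraries, against 1.40, 2.39 and 2.08 CPM in control (log2 change 3.83, SE 0.153, adjusted p = 3.21e-15). BID, of the same class, fell to 4.74 ± 0.418 CPM with high butyrate, against 33.6 ± 2.04 CPM in control, and CFLAR, which blocks caspase 8, fell to 10.4 ± 0.524 CPM with high butyrate, against 48.0 ± 0.528 CPM in control. BCL2L1, which protects cells, fell by 0.51. MCL1 was not called (210.2 ± 2.60 CPM with high butyrate against 219 ± 4.50 CPM in control, adjusted p = 0.377).

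Among the enzymes that butyrate inhibits and their relatives, 10 of 17 deacetylase and sirtuin genes rose and 2 fell (median 0.24). HDAC3, the catalytic unit of the nuclear corepressor complexes, had 109.6, 106 and 101 CPM in the high butyrate libraries, against 50.7, 51.2 and 50.8 CPM in control (log2 change 1.05, SE 0.0596, adjusted p = 1.07e-12). HDAC2 fell to 139.7 ± 1.12 CPM with high butyrate, against 199 ± 4.05 CPM in control (log2 change -0.51, adjusted p = 3.75e-06). Its close relative HDAC1 averaged 195 ± 4.63 CPM with high butyrate and 173 ± 5.12 CPM in control (log2 change 0.17, adjusted p = 0.0102), a small difference whose call ended without high butyrate library 1 (adjusted p = 0.0532), high butyrate library 2 (0.0586) or control library 3 (0.0538), or with no filter on low counts (0.172). HDAC8 was not called (5.85 ± 1.10 CPM with high butyrate against 7.25 ± 0.409 CPM in control, adjusted p = 0.0964), but was called lower without high butyrate library 1 (adjusted p = 0.0227), with no filter on low counts (0.0195) and in a fit of the 6 libraries alone (0.0289). Among class II enzymes HDAC7 fell 4.30-fold to 6.71 ± 0.458 CPM with high butyrate, against 28.9 ± 0.739 CPM in control, while HDAC5, named after its value was seen, rose to 139.8 ± 1.196 CPM with high butyrate, against 60.8 ± 2.98 CPM in control. SIRT4, of mitochondria, and SIRT7, of the nucleolus, rose 3.86-fold and 2.63-fold.

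Acetyltransferase and bromodomain genes fell in 9 of 16 cases and rose in 4 (median -0.38). CREBBP, which encodes the coactivator CBP, averaged 47.6 ± 3.54 CPM with high butyrate and 85.4 ± 3.72 CPM in control (log2 change -0.84, adjusted p = 9.44e-07), while its paralogue EP300 was not called (107 ± 10.7 CPM with high butyrate against 114 ± 1.71 CPM in control, adjusted p = 0.442). KAT6B, an acetyltransferase gene, and BRD3, a reader of acetylated histones, fell by 1.25 and 1.02. The count of 4 risen genes was 2 without high butyrate library 1 or library 2. Of 14 histone genes, 8 rose and 5 fell. H2AZ1, a variant tied to active promoters and proliferation, had 26.6, 27.0 and 31.0 CPM in the high butyrate libraries, against 94.7, 103 and 106 CPM in control (log2 change -1.84, adjusted p = 4.68e-14). H2BC21 and H2AC6, clustered histone genes that also give polyadenylated transcripts, rose by 2.93 and 2.20, with the reservation that histone gene copies resemble each other.

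Insulin signalling genes, the subject of the series, gave 10 rises and 19 falls among 44 (median -0.18). INSR, the insulin receptor gene, had 44.2, 42.4 and 49.1 CPM in the high butyrate libraries, against 72.5, 67.6 and 64.2 CPM in control (log2 change -0.59, SE 0.0908, adjusted p = 5.94e-06). IRS1, the adaptor below it, had 92.4, 84.1 and 88.4 CPM in the high butyrate libraries, against 141, 133 and 133 CPM in control (log2 change -0.62, SE 0.0804, adjusted p = 5.57e-07), and AKT2, the main liver isoform of the kinase AKT, fell to 103 ± 5.53 CPM with high butyrate, against 151 ± 1.78 CPM in control. In these 3 genes no high butyrate library reached the control range. IRS2 was not called (2.37 ± 0.243 CPM with high butyrate against 2.77 ± 0.323 CPM in control, adjusted p = 0.222). TRIB3, which encodes an inhibitor of AKT, fell 5.37-fold to 26.2 ± 0.988 CPM with high butyrate, against 141 ± 1.07 CPM in control, and INPP5D, encoding a lipid phosphatase that opposes PI3-kinase, fell 4.86-fold. FOXO1, the transcription factor that insulin restrains, fell by 0.32 on the log2 scale (adjusted p = 0.00404).

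Genes of glucose output and glycogen gave 7 rises and 12 falls among 23. PCK1, the rate-limiting gene of gluconeogenesis, was low but rose, with 3.32, 3.19 and 3.71 CPM in the high butyrate libraries, against 0.523, 0.256 and 0.273 CPM in control (log2 change 3.28, SE 0.272, adjusted p = 5.59e-10). G6PC1, which releases glucose, was under 1 CPM in both groups (0.832 ± 0.107 CPM with high butyrate against 0.244 ± 0.122 CPM in control). The mitochondrial enzyme gene PCK2 fell to 110.1 ± 1.56 CPM with high butyrate, against 139.9 ± 2.51 CPM in control. PYGM, the muscle form of glycogen phosphorylase, rose to 7.82 ± 0.357 CPM with high butyrate, against 0.388 ± 0.176 CPM in control, whereas PYGL, the liver form, fell by 0.27. PPP1R3C, which targets a phosphatase to glycogen, rose 3.42-fold.

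Glucose uptake and glycolysis genes moved both ways, with 14 higher, 16 lower and 10 not called of 40 (median -0.05). TXNIP, which curbs glucose uptake, had 1227, 1088 and 1177 CPM in the high butyrate libraries, against 100.1, 86.6 and 104 CPM in control (log2 change 3.59, SE 0.0937, adjusted p = 7.08e-18). Of the hexokinase genes, HK1 had 93.7, 71.7 and 74.6 CPM in the high butyrate libraries, against 9.92, 8.11 and 7.32 CPM in control (log2 change 3.24, adjusted p = 5.17e-15). HK2, the form typical of tumours, had 222, 172 and 200.3 CPM in the high butyrate libraries, against 809, 695 and 656 CPM in control (log2 change -1.86, SE 0.134, adjusted p = 5.01e-11), so all 3 high butyrate libraries lay below all 3 controls. SLC2A1, the transporter gene for GLUT1, fell to 869 ± 56.6 CPM with high butyrate, against 1784 ± 53.7 CPM in control, and SLC2A3, for GLUT3, rose to 2009 ± 139 CPM with high butyrate, against 1012 ± 112 CPM in control, both named after their values were seen. LDHA, which makes lactate, fell to 1461 ± 106 CPM with high butyrate, against 2628 ± 116 CPM in control (log2 change -0.85, adjusted p = 2.05e-08), and PKLR, the liver pyruvate kinase gene, fell to 8.22 ± 0.878 CPM with high butyrate, against 25.7 ± 2.16 CPM in control. PKM, the other pyruvate kinase gene, was not called (2041 ± 99.4 CPM with high butyrate against 2097 ± 82.5 CPM in control, adjusted p = 0.651). PDK4, which blocks entry of pyruvate into the citric acid cycle, rose to 2.05 ± 0.333 CPM with high butyrate, against 0.0974 ± 0.0657 CPM in control. Its log2 change was 4.36, or 5.00 without control library 2.

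Genes of fat synthesis, from fatty acids to triglycerides, rose in 17 of 28 cases and fell in 8 (median 0.32). SREBF1, the transcription factor of lipogenesis, had 319, 362 and 356 CPM in the high butyrate libraries, against 85.7, 88.8 and 84.5 CPM in control (log2 change 2.00, SE 0.0779, adjusted p = 2.11e-15). FASN, which encodes fatty acid synthase, had 5153, 5014 and 5342 CPM in the high butyrate libraries, against 2065, 1930.0 and 1846 CPM in control (log2 change 1.41, SE 0.124, adjusted p = 1.56e-09). SCD, a desaturase gene, averaged 4531 ± 406 CPM with high butyrate and 3419 ± 280.1 CPM in control (log2 change 0.41, adjusted p = 8.74e-05). ELOVL6, the elongase of palmitate, ran against them with 62.3, 61.7 and 59.4 CPM in the high butyrate libraries, against 159, 143 and 149.5 CPM in control (log2 change -1.30, SE 0.0758, adjusted p = 1.69e-12). PNPLA3, a lipid droplet enzyme gene, and MOGAT2, of triglyceride assembly, fell by 1.64 and 1.93.

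Of 37 genes of cholesterol synthesis and uptake, 26 were lower and 6 higher (median -0.65). HMGCS1, an early enzyme of the pathway, had 172, 149 and 179 CPM in the high butyrate libraries, against 512, 471 and 508 CPM in control (log2 change -1.58, SE 0.0763, adjusted p = 7.62e-14), and no high butyrate library reached the control range. ACAT2, of the first step, fell 8.56-fold to 24.3 ± 1.33 CPM with high butyrate, against 208 ± 11.4 CPM in control. SQLE and CYP51A1, later enzymes of the pathway, fell by 0.83 and 1.58. SREBF2, the transcription factor of this pathway, averaged 222 ± 12.01 CPM with high butyrate and 257 ± 14.5 CPM in control (log2 change -0.21, adjusted p = 0.0129), and its call ended without high butyrate library 2 (adjusted p = 0.0550) or control library 1 (0.0780) and with library totals alone (0.103), DESeq2 size factors (0.0524), at least 1 CPM in 3 libraries (0.0877) and FPKM (0.107 and 0.108).

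Of 33 droplet and lipoprotein genes, 13 rose and 11 fell. PLIN2, the main droplet coat of liver and a common readout of fat loading, was not called (1003 ± 4.29 CPM with high butyrate against 873 ± 63.7 CPM in control, adjusted p = 0.121), though it was called higher with DESeq2 (adjusted p = 0.0417), library totals alone (0.0320), at least 1 CPM in 3 libraries (0.0388), a fit of the 6 libraries alone (0.00789) and the replicate block (0.0395). PLIN5, the coat that links droplets to mitochondria, rose to 23.7 ± 2.21 CPM with high butyrate, against 0.549 ± 0.321 CPM in control (log2 change 5.40, adjusted p = 1.04e-14). The apolipoprotein genes APOB and APOA1 averaged 8889 ± 864 CPM with high butyrate against 5798 ± 393 CPM in control and 1679.8 ± 159 CPM with high butyrate against 836 ± 34.2 CPM in control and both rose, as did APOA4 (8.83-fold). MTTP, which loads lipid onto APOB, fell to 8.81 ± 0.593 CPM with high butyrate, against 11.5 ± 0.362 CPM in control (log2 change -0.39, adjusted p = 8.44e-04). MGLL, a lipase gene, fell to 0.148 ± 0.134 CPM with high butyrate, against 1.78 ± 0.314 CPM in control. It belongs to the 56 genes that also split the palmitate libraries, with 0.155 and 0.0686 CPM in palmitate libraries 2 and 3. Its log2 change against control was -3.54, or -4.56 without high butyrate library 2.

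Fatty acid oxidation and ketone body genes gave 13 rises and 17 falls among 38. CPT1A, the gate of mitochondrial oxidation, was not called (87.9 ± 1.38 CPM with high butyrate against 96.7 ± 4.77 CPM in control, adjusted p = 0.0712), but was called lower without control library 3 (adjusted p = 0.0428) or palmitate library 1 (0.0409), with no filter on low counts (0.0458) and in a fit of the 6 libraries alone (0.0102). PPARA, the receptor that governs it, was not called either (37.6 ± 4.72 CPM with high butyrate against 35.6 ± 3.73 CPM in control, adjusted p = 0.554). ACADM, a medium-chain dehydrogenase gene, fell to 42.0 ± 3.31 CPM with high butyrate, against 81.1 ± 3.21 CPM in control (log2 change -0.95, adjusted p = 5.23e-08), and PPARG fell 5.73-fold. ACSL1, which activates long-chain fatty acids, rose to 64.5 ± 2.75 CPM with high butyrate, against 13.8 ± 1.38 CPM in control, and CPT1C, a form best known from brain, rose to 11.05 ± 0.754 CPM with high butyrate, against 0.970 ± 0.324 CPM in control. For butyrate itself, 6 of 12 tested genes of uptake, activation and sensing rose and 4 fell. ACSM3 and ACSM1, which couple medium-chain and short-chain acids to coenzyme A, averaged 89.5 ± 4.46 CPM with high butyrate against 39.1 ± 0.661 CPM in control and 11.8 ± 1.34 CPM with high butyrate against 2.59 ± 0.396 CPM in control. HCAR3, a hydroxycarboxylic acid receptor gene, fell to 1.79 ± 0.316 CPM with high butyrate, against 4.53 ± 0.119 CPM in control.

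Hepatocyte transcription factors fell in 17 of 26 cases and rose in 4 (median -0.69). HNF4A, the central regulator, fell only by 0.27 (252 ± 2.14 CPM with high butyrate against 305 ± 10.8 CPM in control, adjusted p = 0.00138). NR1H4, the bile acid receptor FXR, had 19.0, 17.4 and 17.8 CPM in the high butyrate libraries, against 65.3, 63.6 and 67.9 CPM in control (log2 change -1.86, adjusted p = 4.31e-14), and its target NR0B2, a corepressor, had 20.9, 21.6 and 21.005 CPM in the high butyrate libraries, against 158, 156 and 141 CPM in control (log2 change -2.84, adjusted p = 2.79e-17). NR1I2, the xenobiotic receptor PXR, fell 4.77-fold. CEBPA was among those that rose, at 91.1 ± 1.24 CPM with high butyrate and 54.0 ± 1.71 CPM in control (log2 change 0.75, adjusted p = 9.59e-08).

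Secreted plasma proteins fell in 35 and rose in 12 of 56 cases (median -0.71). ALB, encoding albumin, had 2961, 2826 and 2957 CPM in the high butyrate libraries, against 5583, 5441 and 5710.5 CPM in control (log2 change -0.94, SE 0.0955, adjusted p = 1.54e-08). AFP, its fetal counterpart, had 2152, 1945 and 1951 CPM in the high butyrate libraries, against 4041, 4007 and 4062 CPM in control (log2 change -1.002, SE 0.0991, adjusted p = 9.62e-09). On the length-corrected scale ALB stood at 892 ± 25.1 FPKM with high butyrate and 1624 ± 42.7 FPKM in control. IGFBP1, an insulin-repressed binder of insulin-like growth factor, had 64.4, 51.5 and 63.8 CPM in the high butyrate libraries, against 666, 518 and 486 CPM in control (log2 change -3.22, adjusted p = 1.76e-11). CP, encoding ceruloplasmin, fell 8.49-fold. SERPING1, the C1 inhibitor gene, rose to 2.60 ± 0.347 CPM with high butyrate, against 0.258 ± 0.0910 CPM in control, and SERPINA1 was not called (5369 ± 757 CPM with high butyrate against 5575 ± 228 CPM in control, adjusted p = 0.633).

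Bile acid and drug metabolism genes were split evenly, 18 up and 18 down of 45. CYP1A1, the target gene of the aryl hydrocarbon receptor, had 23.6, 28.1 and 23.6 CPM in the high butyrate libraries, against 1.66, 2.09 and 2.14 CPM in control (log2 change 3.67, adjusted p = 3.21e-13), and CYP4F2, which hydroxylates fatty acids and vitamin K, rose 13.2-fold to 89.6 ± 2.19 CPM with high butyrate, against 6.78 ± 1.13 CPM in control. CYP2W1 fell to 5.35 ± 0.377 CPM with high butyrate, against 42.2 ± 1.31 CPM in control. Amino acid and urea genes also divided evenly, 14 up and 14 down of 39. BHMT, which remethylates homocysteine, had 195, 152 and 152 CPM in the high butyrate libraries, against 8.02, 6.19 and 6.04 CPM in control (log2 change 4.62, SE 0.142, adjusted p = 6.24e-17). In the urea cycle CPS1 fell by 0.57 and ASS1 rose by 0.43. KYNU, of tryptophan breakdown, and BCAT1, of branched-chain amino acid use, fell by 2.76 and 2.45.

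**Figure D4:**
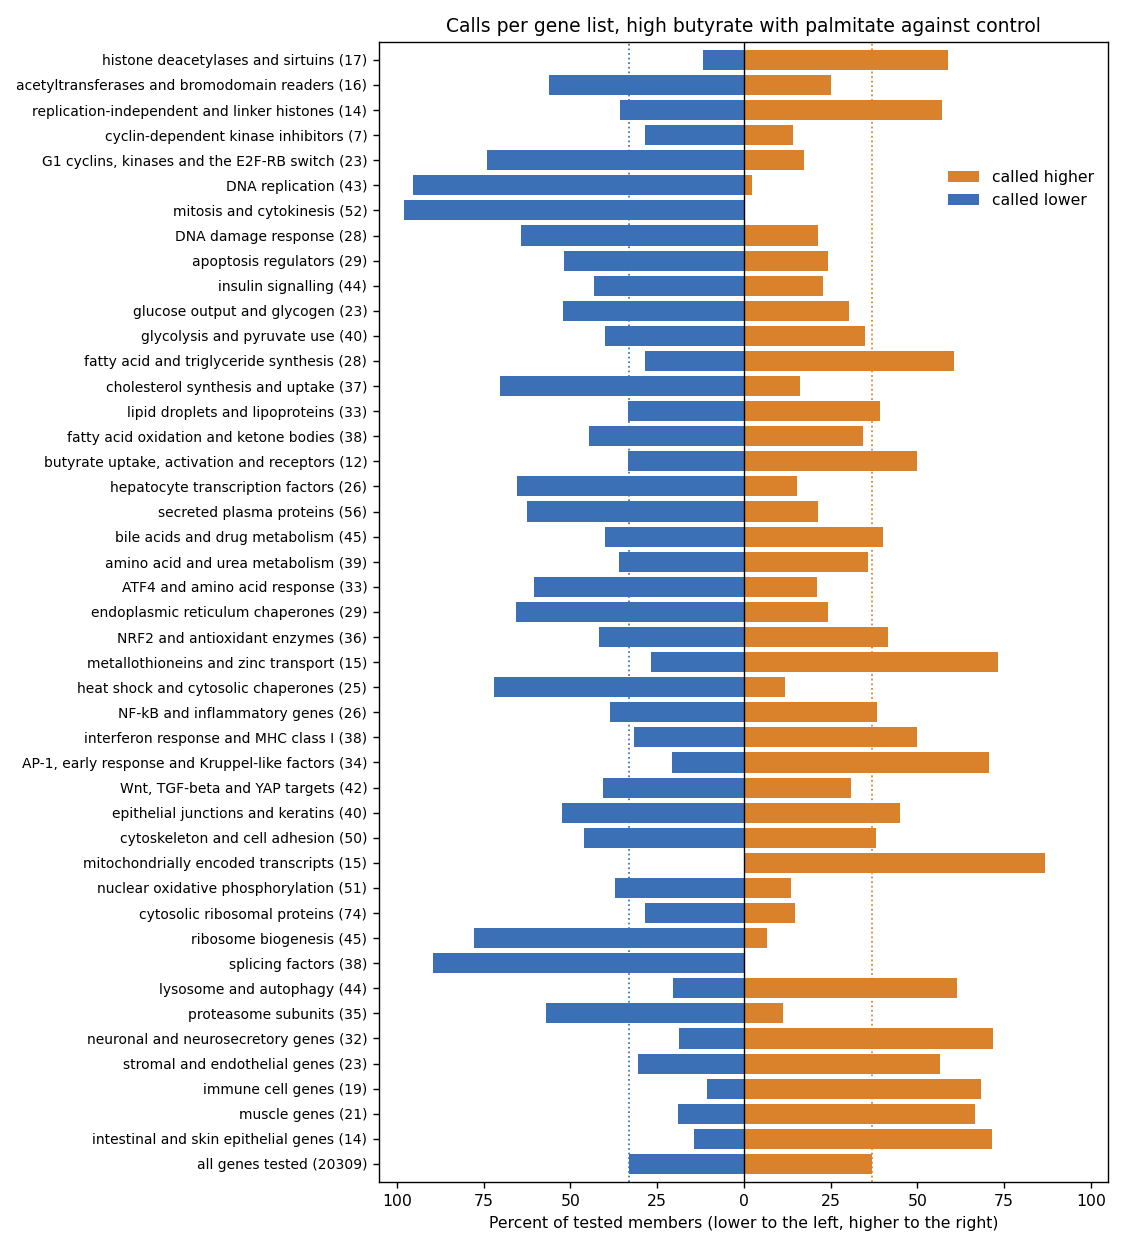
Percent of tested members called higher (right, orange) and lower (left, blue) with high butyrate for the 44 gene lists, with the number tested in brackets, and dotted lines at the shares of all 20309 genes, 36.9% higher and 33.1% lower. Mitosis, DNA replication and splicing reach farthest to the left, and mitochondrially encoded transcripts farthest to the right. The list labelled DNA damage response holds targets of p53.

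Stress response genes of the endoplasmic reticulum and of the cytosol fell more often than they rose. Of 33 members of the ATF4 list, which covers the amino acid response, 20 fell and 7 rose (median -0.27). ATF4, the transcription factor, had 323, 340.1 and 348 CPM in the high butyrate libraries, against 509, 549 and 571 CPM in control (log2 change -0.69, adjusted p = 1.01e-08). Its partner DDIT3 (2.81 ± 0.0881 CPM with high butyrate against 2.71 ± 0.125 CPM in control, adjusted p = 0.842) and the target ASNS (1.42 ± 0.275 CPM with high butyrate against 1.29 ± 0.105 CPM in control, adjusted p = 0.529) were not called. NUPR1 fell to 0.155 ± 0.107 CPM with high butyrate, against 2.23 ± 0.494 CPM in control (log2 change -3.80, or -4.39 without high butyrate library 2). ALDH1L2, of mitochondrial folate metabolism, rose 3.81-fold. Endoplasmic reticulum chaperone genes fell in 19 of 29 and rose in 7. HSPA5, the chaperone BiP, had 1003, 919 and 911 CPM in the high butyrate libraries, against 1687, 1617 and 1602 CPM in control (log2 change -0.79, adjusted p = 7.25e-09), and MANF, a secreted stress protein, fell 2.83-fold. ERN1, the sensor IRE1, rose to 44.9 ± 2.09 CPM with high butyrate, against 17.1 ± 1.49 CPM in control (log2 change 1.39, adjusted p = 5.65e-12), and CREB3L3, a liver transcription factor held in that membrane, rose to 81.8 ± 13.8 CPM with high butyrate, against 7.29 ± 1.36 CPM in control (log2 change 3.49, adjusted p = 1.09e-15).

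Cytosolic heat shock genes fell in 18 of 25 cases and rose in 3. HSPA8, the constitutive chaperone, had 1174, 1105 and 1134 CPM in the high butyrate libraries, against 2929, 3131 and 3261 CPM in control (log2 change -1.45, adjusted p = 8.83e-13), and HSPH1 and HSPD1 fell by 1.83 and 1.31. HSPA1A, the inducible form, rose to 174 ± 2.21 CPM with high butyrate, against 119.7 ± 1.90 CPM in control (log2 change 0.54, adjusted p = 3.67e-05), though it has a near-identical copy that could share its reads. Antioxidant genes under NRF2 divided evenly, 15 up and 15 down of 36. NFE2L2, which encodes NRF2, fell to 93.8 ± 4.64 CPM with high butyrate, against 151 ± 8.47 CPM in control, while HMOX1, which breaks down haem, rose to 90.8 ± 5.86 CPM with high butyrate, against 51.1 ± 1.16 CPM in control (log2 change 0.83, adjusted p = 9.71e-11). SLC7A11, the cystine importer, and AKR1B10, a reductase, fell by 1.75 and 1.63, and SRXN1 rose by 1.35.

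Metallothioneins and zinc transport genes went upward: 11 of 15 rose and 4 fell (median 2.41). MT2A, a metal-binding protein gene, had 331, 432 and 388 CPM in the high butyrate libraries, against 59.2, 68.3 and 59.7 CPM in control (log2 change 2.62, SE 0.112, adjusted p = 9.27e-15). MT1X averaged 13.4 ± 1.26 CPM with high butyrate and 1.02 ± 0.0778 CPM in control, MT1G 139 ± 16.7 CPM with high butyrate and 14.8 ± 2.11 CPM in control and MT1A 7.19 ± 0.655 CPM with high butyrate and 0.326 ± 0.0943 CPM in control. These genes on chromosome 16 are close copies, so reads may have been divided between them.

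Early response genes rose in 24 of 34 cases and fell in 7 (median 0.66). FOS, a subunit of AP-1, had 37.1, 38.9 and 33.6 CPM in the high butyrate libraries, against 3.10, 2.56 and 1.89 CPM in control (log2 change 3.87, SE 0.243, adjusted p = 5.57e-12), and EGR1, a growth-induced zinc finger factor, had 107, 106 and 82.6 CPM in the high butyrate libraries, against 9.42, 8.85 and 6.70 CPM in control (log2 change 3.57, SE 0.128, adjusted p = 6.45e-16). JUN, the partner of FOS, rose less, by 0.26 (adjusted p = 0.00288). KLF4 and KLF15, Kruppel-like factors, rose by 1.92 and 3.44.

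Interferon and antigen presentation genes gave 19 rises and 12 falls among 38 (median 0.36). IFI6 had 36.1, 49.9 and 50.3 CPM in the high butyrate libraries, against 2.14, 2.15 and 2.32 CPM in control (log2 change 4.36, adjusted p = 6.95e-17). OASL and IFIT1, further interferon-stimulated genes, averaged 5.27 ± 0.513 CPM with high butyrate against 0.0838 ± 0.0444 CPM in control and 7.56 ± 0.219 CPM with high butyrate against 1.10 ± 0.209 CPM in control, and B2M, the light chain of MHC class I, averaged 447 ± 22.6 CPM with high butyrate and 255 ± 12.7 CPM in control (log2 change 0.81, adjusted p = 2.22e-08). NF-kB and inflammatory genes rose and fell in 10 cases each of 26. CCL20, a chemokine gene, had 535, 530.0 and 589 CPM in the high butyrate libraries, against 131, 115 and 115 CPM in control (log2 change 2.19, adjusted p = 6.34e-13), while the adaptor gene MYD88 fell to 7.93 ± 0.322 CPM with high butyrate, against 52.4 ± 2.73 CPM in control and the kinase gene IRAK1 to 41.6 ± 2.69 CPM with high butyrate, against 206 ± 0.788 CPM in control. With library totals alone as the scale, 6 of these genes fell instead of 10. NFKBIA, a sensitive NF-kB target, was not called (67.2 ± 3.80 CPM with high butyrate against 69.7 ± 1.67 CPM in control, adjusted p = 0.55).

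Targets of Wnt, TGF-beta and YAP gave 13 rises and 17 falls among 42. ID2 and ID3, inhibitors of helix-loop-helix factors and targets of BMP signals, rose to 1189.7 ± 69.5 CPM with high butyrate against 208 ± 4.51 CPM in control and 213 ± 19.6 CPM with high butyrate against 46.5 ± 1.56 CPM in control. LGR5, a Wnt coreceptor gene, fell to 46.3 ± 1.81 CPM with high butyrate, against 137 ± 2.55 CPM in control, whereas AXIN2, a negative feedback gene of the same pathway, rose by 0.25.

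Of 40 junction and keratin genes, 18 rose, 21 fell and 1 was not called. CDH1, encoding E-cadherin, had 129.6, 116 and 119 CPM in the high butyrate libraries, against 37.2, 36.7 and 34.7 CPM in control (log2 change 1.75, SE 0.0803, adjusted p = 3.28e-14), and CDH3, encoding P-cadherin, had 7.21, 7.71 and 7.12 CPM in the high butyrate libraries, against 0.0436, 0.0640 and 0.0390 CPM in control. KRT19, a keratin of bile ducts, rose to 735 ± 20.4 CPM with high butyrate, against 244 ± 8.23 CPM in control (log2 change 1.59, adjusted p = 3.12e-15), and KRT18, a keratin of liver cells, fell by 0.42. EPCAM, an adhesion gene of progenitors and ducts, fell to 101 ± 0.409 CPM with high butyrate, against 216 ± 1.95 CPM in control (log2 change -1.10, adjusted p = 3.75e-10). KRT7, another duct keratin, fell to 0.0207 ± 0.01998 CPM with high butyrate, against 4.11 ± 0.416 CPM in control. It belongs to the 56 genes and stood at 0 and 0.0343 CPM in palmitate libraries 2 and 3. Its log2 change against control was -7.46, or -8.30 without high butyrate library 2. Cytoskeleton and adhesion genes gave 19 rises and 23 falls among 50. VIL1, the villin of microvilli, averaged 921 ± 26.5 CPM with high butyrate and 483 ± 6.31 CPM in control (log2 change 0.93, adjusted p = 1.54e-10), and TUBB, a beta tubulin, fell to 676 ± 23.5 CPM with high butyrate, against 1828 ± 45.8 CPM in control. CNN1, a smooth muscle calponin, rose to 9.95 ± 1.27 CPM with high butyrate, against 0.274 ± 0.0893 CPM in control. CD44, an adhesion receptor of the 56 genes, averaged 0.0141 ± 0.0123 CPM with high butyrate and 4.29 ± 0.660 CPM in control, with 0.0888 and 0 CPM in palmitate libraries 2 and 3.

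Transcripts of the mitochondrial genome rose in 13 of 15 cases and none fell (median 0.44). MT-CYB, of respiratory complex III, had 4201, 3759 and 3512 CPM in the high butyrate libraries, against 2495, 2416 and 2297 CPM in control (log2 change 0.67, SE 0.102, adjusted p = 5.18e-06), and MT-ND1, of complex I, had 4344, 3714 and 3113 CPM in the high butyrate libraries, against 2717, 2361 and 2439 CPM in control (log2 change 0.57, adjusted p = 0.00111). The nuclear partners were counted too: of 51 nuclear oxidative phosphorylation genes, 7 rose, 19 fell and 25 were not called (median -0.14). NDUFS1 of complex I fell to 137 ± 1.68 CPM with high butyrate, against 211 ± 5.14 CPM in control (log2 change -0.63, adjusted p = 3.40e-09), NDUFC1 and CYC1 fell by 1.46 and 1.15, and ATP5F1B of ATP synthase was not called (609 ± 42.0 CPM with high butyrate against 622 ± 4.42 CPM in control, adjusted p = 0.708). A difference between both lists was not tested. On FPKM with a pseudocount of 0.1, 8 of the mitochondrial transcripts rose, and with library totals alone 11 of the nuclear genes did.

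Splicing factor genes fell in 34 of 38 cases and none rose (median -0.75). HNRNPA2B1, an abundant RNA-binding protein gene, had 508, 499 and 469 CPM in the high butyrate libraries, against 1746, 1779.6 and 1810.1 CPM in control (log2 change -1.85, SE 0.102, adjusted p = 6.27e-13), U2AF2, which marks the 3′ splice site, fell 2.99-fold, and the splicing activators SRSF1 and SRSF3 fell 2.57-fold and 2.04-fold. Ribosome biogenesis genes fell in 35 of 45 and rose in 3 (median -0.55). NCL, encoding nucleolin, averaged 894 ± 91.0 CPM with high butyrate and 1835 ± 27.9 CPM in control (log2 change -1.04, adjusted p = 8.24e-10), NPM1, encoding nucleophosmin, averaged 931 ± 22.1 CPM with high butyrate and 1703 ± 68.2 CPM in control, and UBTF, the factor that opens ribosomal DNA, fell 3.95-fold. Of 74 ribosomal protein genes, 42 were not called, 21 lower and 11 higher. Without high butyrate library 2 or 3 or control library 2 the number higher was 6, and without control library 1 it was 7. RPLP0 fell by 0.29 and RPL21 by 0.73, while RPS3 (1254 ± 22.9 CPM with high butyrate against 1269 ± 20.7 CPM in control, adjusted p = 0.847) was not called.

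Lysosome and autophagy genes rose in 27 of 44 cases and fell in 9 (median 0.29). NEU1, the lysosomal sialidase gene, had 624, 629.8 and 633 CPM in the high butyrate libraries, against 164, 154 and 159 CPM in control (log2 change 1.99, SE 0.0721, adjusted p = 7.40e-16). ATP6V0A1 and ATP6V0D1, subunits of the acidifying proton pump, rose 3.45-fold and 2.38-fold, and TFEB, the transcription factor of lysosomal genes, rose to 16.2 ± 1.43 CPM with high butyrate, against 10.2 ± 0.724 CPM in control (log2 change 0.67, adjusted p = 5.60e-06). Proteasome subunit genes fell in 20 of 35 and rose in 4 (median -0.39). PSMB5, which carries the chymotrypsin-like site, averaged 135 ± 13.6 CPM with high butyrate and 310.2 ± 6.995 CPM in control (log2 change -1.20, adjusted p = 9.56e-12), PSMC1, an ATPase of the base, fell by 0.96, and PSMD1 was not called (249.9 ± 4.97 CPM with high butyrate against 248 ± 6.70 CPM in control, adjusted p = 0.889).

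Genes typical of other tissues were counted over the members that passed the filter on low counts, 32 of 45 neuronal, 21 of 33 muscle, 23 of 31 stromal and endothelial, 19 of 25 immune and 14 of 25 intestinal and skin genes in the table. A gene silent in control could pass only through groups where it was higher, so nothing is read from these counts, and the genes left out are not described. Neuronal and neurosecretory genes rose in 23 of 32 cases and fell in 6. SYP, the synaptic vesicle protein synaptophysin, had 41.3, 40.8 and 39.4 CPM in the high butyrate libraries, against 2.11, 2.20 and 2.43 CPM in control (log2 change 4.17, SE 0.0950, adjusted p = 1.26e-18). SYT11, SYNGR1 and DPYSL5, of vesicles and axon growth, rose by 5.58, 5.96 and 6.19, and EEF1A2, an elongation factor of nerve and muscle, had 33.3, 36.9 and 33.9 CPM in the high butyrate libraries, against 1.26, 1.02 and 1.13 CPM in control. Without control library 2 the change of DPYSL5 was 6.83. ENO2, the neuronal enolase gene, ran against them and fell to 61.5 ± 3.60 CPM with high butyrate, against 97.1 ± 8.09 CPM in control. The other neuronal markers were scarce. SNAP25 averaged 0.0107 FPKM with high butyrate and 0.0706 FPKM in control, STMN2 0.0214 and 0 FPKM, and NEFL 0.0258 and 0 FPKM.

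Muscle genes rose in 14 of 21 and fell in 4. DES, encoding desmin, had 14.1, 14.3 and 14.0 CPM in the high butyrate libraries, against 0.174, 0.171 and 0.0974 CPM in control (log2 change 6.57, SE 0.197, adjusted p = 4.27e-17), and CKM, the muscle creatine kinase gene, averaged 12.1 ± 0.422 CPM with high butyrate and 0.515 ± 0.0718 CPM in control. Stromal and endothelial genes rose in 13 of 23 and fell in 7. COL1A1, encoding type I collagen, had 15.5, 17.5 and 17.4 CPM in the high butyrate libraries, against 0.0436, 0.320 and 0.234 CPM in control (log2 change 6.37, adjusted p = 3.70e-14), MMP2, a matrix protease gene, averaged 9.47 ± 0.632 CPM with high butyrate and 0.350 ± 0.0668 CPM in control, and PECAM1, of endothelium, rose to 11.1 ± 1.48 CPM with high butyrate, against 4.43 ± 0.527 CPM in control. Of the 6 stromal markers, COL3A1, DCN and LUM were under 0.02 FPKM in both groups, while COL1A1, COL1A2 and PDGFRB averaged 1.96, 0.133 and 0.907 FPKM with high butyrate and 0.0222, 0.00656 and 0.296 FPKM in control. Of 19 immune cell genes, 13 rose and 2 fell, and PTPRC and CD3E were near 0. CORO1A, an actin regulator of leukocytes, had 84.7, 95.4 and 88.2 CPM in the high butyrate libraries, against 10.2, 12.4 and 11.998 CPM in control (log2 change 2.95, adjusted p = 2.50e-17), CD14 averaged 3.82 ± 0.356 CPM with high butyrate and 0.631 ± 0.0476 CPM in control and CD79B, of the B cell receptor, averaged 3.22 ± 0.475 CPM with high butyrate and 0.0782 ± 0.0548 CPM in control. Of 14 intestinal and skin genes, 10 rose and 2 fell, but only 4 rose where at least 1 CPM in 3 libraries was asked for. ALPG and ALPI, alkaline phosphatases of germ cells and intestine, rose to 10.2 ± 0.461 CPM with high butyrate against 0.0291 ± 0.0503 CPM in control and 3.53 ± 0.290 CPM with high butyrate against 0.0260 ± 0.0450 CPM in control, though their sequences are alike and reads may have been divided between them. ALPG had counts only in control library 1 and ALPI only in control library 3, so no ratio is given, and both were called whichever library was left out. TGM1, of the skin barrier, fell to 1.24 ± 0.238 CPM with high butyrate, against 3.21 ± 0.552 CPM in control.

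The highest dose stood apart from the middle one. Tested directly against palmitate with 1 mM butyrate, 11291 of 20309 genes (55.6%) differed, 5472 higher (26.9%) and 5819 lower (28.7%) at 1.5 mM. Palmitate alone differed from control at 22 genes (0.108%), with its 3 libraries divided as described above. These comparisons share libraries with the one above, and their values are set side by side only. Of the genes high against both, TXNIP averaged 96.8 CPM in control, 99.6 with palmitate alone, 147 with palmitate and 0.5 mM butyrate, 170.1 at 1 mM and 1164 at 1.5 mM (log2 difference 2.78, adjusted p = 1.60e-15, high against medium). EGR1 averaged 8.32 CPM in control, 9.37 with palmitate alone, 11.3 with palmitate and 0.5 mM butyrate, 11.7 at 1 mM and 98.5 at 1.5 mM (log2 difference 3.07, adjusted p = 2.91e-14). CDKN1A averaged 66.8 CPM in control, 58.7 with palmitate alone, 104 with palmitate and 0.5 mM butyrate, 111 at 1 mM and 292 at 1.5 mM (log2 difference 1.39, adjusted p = 6.43e-14). In these genes the step between 1 and 1.5 mM was larger than the step between control and 1 mM. The rule named CRISPLD2, SYT11, LINC02204, DPY19L2P2, TCN2 and PHOSPHO1 as the largest rises over medium butyrate, by 3.17 to 3.88 on the log2 scale. TCN2, which encodes the vitamin B12 carrier transcobalamin, averaged 0.894 CPM in control, 0.907 with palmitate alone, 4.56 with palmitate and 0.5 mM butyrate, 5.04 at 1 mM and 47.4 at 1.5 mM. Among the largest falls below medium, outside the 56 genes, SLC26A9 averaged 35.1 CPM in control, 30.6 with palmitate alone, 19.9 with palmitate and 0.5 mM butyrate, 19.0 at 1 mM and 1.54 at 1.5 mM and LINC00513 30.4 CPM in control, 27.2 with palmitate alone, 18.3 with palmitate and 0.5 mM butyrate, 17.9 at 1 mM and 1.42 at 1.5 mM.

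The mitosis and replication lists were lower at the high than at the medium dose in 49 of 52 mitosis genes and 41 of 43 replication genes, with none higher. Of 23 genes of the G1 and E2F group 17 were lower and 4 higher, and of 7 kinase inhibitors 2 were lower and 2 higher. Of 28 tested p53 targets 13 were lower and 8 higher. CDK1 averaged 246 CPM in control, 279.8 with palmitate alone, 187 with palmitate and 0.5 mM butyrate, 168 at 1 mM and 45.3 at 1.5 mM (log2 difference -1.89, adjusted p = 9.62e-11). E2F1 was not lower at the lower doses, averaging 82.2 CPM in control, 88.3 with palmitate alone, 95.5 with palmitate and 0.5 mM butyrate, 92.8 at 1 mM and 21.7 at 1.5 mM (log2 difference -2.10, adjusted p = 2.85e-16). Ribosomal protein genes were lower than at the medium dose in 46 of 74 cases, with none higher.

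Of other genes, FASN, APOB, CCL20 and MYC stood close together at all 3 doses, while EEF1A2 and ALB did not. FASN averaged 1947 CPM in control, 1760.2 with palmitate alone, 4852 with palmitate and 0.5 mM butyrate, 5073 at 1 mM and 5169.7 at 1.5 mM, and high did not differ detectably from medium (log2 difference 0.03, adjusted p = 0.867). APOB averaged 5798 CPM in control, 5092 with palmitate alone, 9219 with palmitate and 0.5 mM butyrate, 8991 at 1 mM and 8889 at 1.5 mM (log2 difference -0.02, adjusted p = 0.906), and CCL20 120.5 CPM in control, 158 with palmitate alone, 625 with palmitate and 0.5 mM butyrate, 642 at 1 mM and 551 at 1.5 mM (log2 difference -0.22, adjusted p = 0.112). MYC averaged 145 CPM in control, 159 with palmitate alone, 231 with palmitate and 0.5 mM butyrate, 227 at 1 mM and 226 at 1.5 mM (log2 difference -0.01, adjusted p = 0.931). EEF1A2 was lower at the high dose than at the others, averaging 1.14 CPM in control, 1.07 with palmitate alone, 67.3 with palmitate and 0.5 mM butyrate, 68.4 at 1 mM and 34.7 at 1.5 mM (log2 difference -0.98, adjusted p = 3.59e-08). ALB averaged 5578 CPM in control, 6308 with palmitate alone, 6907 with palmitate and 0.5 mM butyrate, 6958 at 1 mM and 2915 at 1.5 mM (log2 difference -1.26, adjusted p = 4.35e-10), so that it was above control at 1 mM and below it at 1.5 mM. None of the 44 lists had more than 1 member called with palmitate alone.

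**Figure D5:**
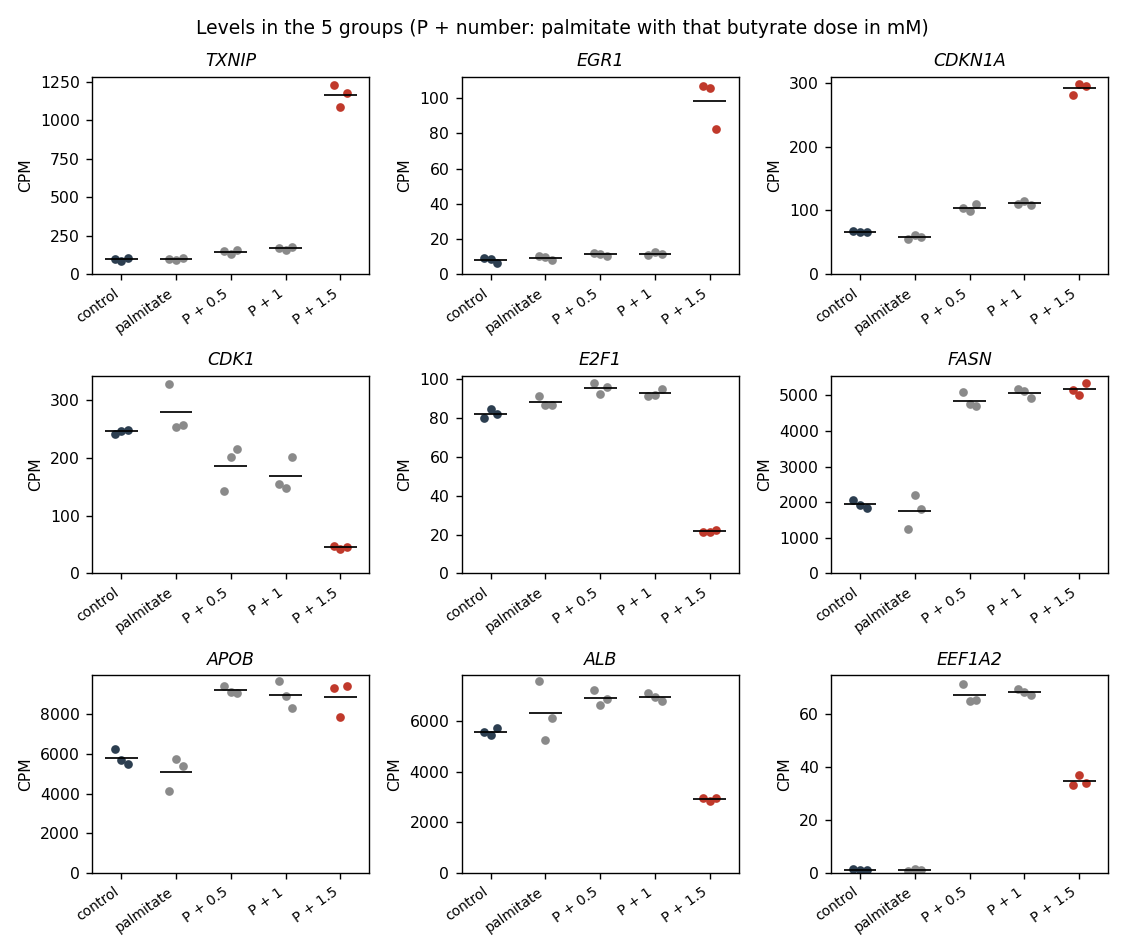
Levels of 9 genes in CPM in the 5 groups of 3 libraries each (points, with a line at the mean), from control through palmitate alone to palmitate with 0.5, 1 and 1.5 mM butyrate. TXNIP, EGR1 and CDKN1A stand highest and CDK1, E2F1 and ALB lowest at 1.5 mM, while FASN and APOB are about level from 0.5 mM on.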

How the data were processed

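Poly(A)-selected RNA was sequenced on the DNBSEQ-T7 platform, per the labels' protocols, and the submitters' processing notes name FastQC, HISAT2, featureCounts and DESeq2 with builds GRCh38 and hg38, without versions. The deposited counts are raw counts for 39133 Ensembl genes in 15 libraries. The deposited FPKM values scale each count for gene length and library size, as the authors made them, and served for levels between genes and as an alternative. The annotation release and the strand setting are not given in the sources used here. Single counts are less certain than they look: 69.2% of counts between 1 and 20 were even, against 50.5% between 100 and 1000.

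Counts were analysed with R 4.3.3 and edgeR 4.0.16 (TMM scaling, filterByExpr, quasi-likelihood test) with 1 coefficient per group over all 15 libraries. This left 20309 genes, over which p-values were adjusted by the Benjamini-Hochberg method and called under 0.05, with a common biological coefficient of variation of 8.88%. The tests were two-sided, and the code was tested on simulated data. DESeq2 1.42.0, limma 3.58.1 on log2(FPKM + 1) or log2(FPKM + 0.1), other filters and scalings, a replicate block and leaving out each library were the alternatives. Positions are from GENCODE release 29, which held 37848 of the genes, and promoters from RefSeq. Python 3.11.15, pandas 2.3.3 and matplotlib 3.10.9 made the summaries and figures.

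Genes were named by rule: among genes called, the 12 steepest rises and falls whose groups do not overlap (average log2 CPM 2 or more), a panel of 164 tested genes of the lists, up to 3 called members per list, and the 6 largest differences each way between high and medium butyrate. The text prints part of those the rule names, and some are not reported here. Exceptions are stated where they stand. The comparison, the 44 lists and the named panel were chosen with earlier results of these data known.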

Additional observations from a re-analysis of the deposited data

Results flagged for a closer look

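A total of 15 of 164 tested genes of the panel were called in opposite directions against control at 1.5 mM and at 1 mM butyrate, each with palmitate, and were also called in the direct test of high against medium butyrate (edgeR quasi-likelihood test, Benjamini-Hochberg adjustment). That is 9.15% of the panel, which was chosen with earlier results known, against 399 (1.96%) of all 20309 genes tested. Lower than control at the high dose and higher at the medium dose were, with the log2 difference of high minus medium, CCND1 (-0.54), E2F1 (-2.10), PCK2 (-0.56), ELOVL6 (-1.61), SREBF2 (-0.46), MTTP (-0.74), FOXA2 (-1.52), ALB (-1.26), HSPA5 (-0.99) and XBP1 (-0.64). Higher than control at the high dose and lower at the medium dose were H3-3B (0.47), HMOX1 (1.08), JUN (0.48), KRT8 (0.35) and SQSTM1 (0.60). Only the calls of high butyrate against control were repeated under other settings, so those at the medium dose were not checked. Some medium calls against control lay near the threshold, such as HSPA5 (adjusted p = 0.0424), CCND1 (0.0398) and FOXA2 (0.0314). At the high dose the calls of 2 of these genes against control ended under some settings. KRT8 was not called without high butyrate library 2 (adjusted p = 0.226) or 3 (0.0575), without control library 1 (0.112) or 3 (0.0862), or with no filter on low counts (0.253), and SREBF2 not without high butyrate library 2 (0.0550) or control library 1 (0.0780), nor with DESeq2 size factors (0.0524), library totals alone (0.103), at least 1 CPM in 3 libraries (0.0877) or FPKM (0.107 and 0.108). ALB and FOXA2, both of hepatocyte identity, had wide differences, as did ELOVL6 and E2F1. Albumin mRNA averaged 2915 ± 76.5 CPM with high butyrate, 6958 ± 153 CPM with medium butyrate and 5578 ± 135 CPM in control (SD, n = 3 each), and HMOX1, which breaks down haem, averaged 90.8 ± 5.86, 42.9 ± 1.64 and 51.1 ± 1.16 CPM in the same groups.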

How the results depend on the processing

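Under every alternative for scaling, test, filter, unit and samples, the counts of genes higher (7502) and lower (6715) with high butyrate stayed within 1.5 times those values, between 6001 and 8061 higher and between 5762 and 7112 lower. The exception was a threshold: asking for a 2-fold change left 4618 higher and 2610 lower. Leaving out 1 of the 6 libraries at a time gave 6965 to 7149 higher and 6376 to 6563 lower. The median log2 change over all genes was 0.06, and 0.13 with library totals alone, so changes of that size depend on the scale. The replicate block gave 7472 higher and 6711 lower, but same-numbered libraries did not deviate together (correlations 0.0016 to 0.0134), and 1 of the 3 high butyrate libraries correlated best with its own number, so the numbers do not pair them. Added after seeing the data, leaving out palmitate library 1 gave 7689 and 6935, and leaving out the 56 genes 7498 and 6677. Of 1496 list counts under alternatives other than thresholds, 23 moved by over 1.5 times, and the cause was not tested. Of the 88 list counts, 2 moved so at an adjusted p under 0.01 and 64 at 2-fold, for instance cholesterol genes lower (10 of 37) and insulin signalling genes lower (5 of 44). Of the 239 named genes, 232 kept their call outside the stricter thresholds, none reversed, and the others are given with their values in the text except TTR, whose call against control ended without high butyrate library 3 (adjusted p = 0.123), control library 2 (0.0528) or control library 3 (0.131). DESeq2 gave no adjusted p for 14 genes, 11 of them among the 56. Transcripts under about 0.1 CPM rest on few counts, so their ratios are uncertain at this depth.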
